A study of Mus musculus with 10 samples.

Results

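The NRF2 antioxidant genes are 10 genes: Nfe2l2, which encodes the transcription factor NRF2, and Hmox1, Nqo1, Gclc, Gclm, Txnrd1, Srxn1, Slc7a11, Gsr and Prdx1. They were taken as a list by gene symbol, with no threshold on their values, and each of the 10 had its own row among the 57010 genes of the count table. All 10 also passed the filter on low counts, which left 15539 genes for testing. RNA was measured in whole retinas of mice aged 6 to 8 weeks, 14 days after an intravitreal injection. The vectors were built on adeno-associated virus (AAV) and carried the gene of the reporter GFP, a green fluorescent protein. A group of 5 mice was given AAV2-GFP and the other group of 5 was given AAV206-GFP. AAV2 is a capsid long used to reach the inner retina with genes, and the title of the study presents a vector specific for the retinal pigment epithelium (RPE). All 10 retinas therefore came from injected eyes with a GFP vector, and no difference below is measured against an uninjected retina. The promoter driving GFP, the sex of the mice and their strain are not given in the sources used here.

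NRF2 is kept low in unstressed cells because KEAP1 holds it and passes it to a ubiquitin ligase for degradation. Electrophiles and oxidants modify cysteines of KEAP1, after which NRF2 accumulates, pairs with a small MAF protein and binds antioxidant response elements near its target genes. The targets make glutathione, regenerate thioredoxin and glutathione, reduce peroxides and quinones and break down heme. The retina has a high oxygen demand and photoreceptor membranes rich in oxidisable lipids, and NRF2 has long been studied there for its part in limiting oxidative damage. Because NRF2 is controlled mostly through the stability of its protein, the level of Nfe2l2 RNA is not a measure of NRF2 activity.

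The antioxidant response element has the core TGACNNNGC, in which N is any base, and short stretches around it are shown because binding at this element defines the gene group. The search covered RefSeq promoter windows (GRCm38.p6) of 300 bases, from 250 before to 50 after a start site, on both strands. Windows were found for 7 members, with 9 windows in all because Txnrd1 had 3. The core occurred in 5 of these 9 windows, which belonged to 5 of the 7 members, and 12.4% of all 32851 windows held it. In the sequences below the 9 bases of the core are in capitals, flanked by 10 bases on each side, and all are written 5′ to 3′ on the strand of the gene.
Nfe2l2, chr2:75704885-75704913, minus strand: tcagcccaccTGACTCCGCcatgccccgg
Gclm, chr3:122245413-122245441, plus strand: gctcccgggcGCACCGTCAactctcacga
Txnrd1, chr10:82859104-82859132, plus strand: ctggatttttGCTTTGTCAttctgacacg
Srxn1, chr2:152105542-152105570, plus strand: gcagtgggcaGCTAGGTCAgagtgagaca
Prdx1, chr4:116685456-116685484, plus strand: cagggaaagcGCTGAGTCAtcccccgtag
The core lay on the strand of the gene for Nfe2l2, where it began 240 bases before the start site. In the other 4 genes it lay on the opposite strand, so the capitals show it reversed and complemented. It began 134 bases before the start in Gclm, 133 before in Prdx1 and 92 before the start of the second Txnrd1 window. In Srxn1 it lay after the start site, from base 29 onward. The Prdx1 core overlapped an AP-1 element, TGACTCA, which was present in 2 of the 9 member windows, from 2 members, and in 5.20% of all windows. The windows of Nqo1 and Slc7a11 did not hold the letters of the core, which says nothing about elements outside these 300 bases. Hmox1, Gclc and Gsr had no window in the table. A match is a description of the letters and was not tested as a binding site.

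Sequencing depth was close in all libraries, at 10989843 to 12752604 counts, and the group means differed by less than the spread within groups (p = 0.397 by a two-sided exact permutation test, n = 5 per group). CPM stands for a gene's count after each library is scaled to the same total, and 3 counts, taken as the limit of detection, correspond to 0.232 to 0.274 CPM. That limit covers counting error only. Rod photoreceptor markers summed to 53222 to 62776.8 CPM in every library, so the defining cells of a retina were present. Immune markers varied more among the AAV2-GFP libraries than among the AAV206-GFP libraries. Microglia and macrophage markers summed to 216 CPM in AAV2-GFP replicate 1 and to 22.8 to 37.6 CPM in the other AAV2-GFP libraries, and the AAV206-GFP libraries lay between 19.9 and 26.4 CPM. Interferon response genes summed to 473 CPM in AAV2-GFP replicate 1 and 640 CPM in replicate 4, against 94.8 to 164 CPM in the other AAV2-GFP libraries and 95.2 to 123 CPM with AAV206-GFP. Of the 9 tested interferon genes, 6 were lower with AAV206-GFP (edgeR, adjusted p under 0.05), beside 5.30% of all tested genes. The interferon sums of AAV2-GFP replicates 2 and 5, at 95.5 and 94.8 CPM, were not above the AAV206-GFP range, while that of replicate 3, at 164 CPM, was.

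None of the 10 antioxidant genes passed an adjusted p of 0.05 between AAV206-GFP and AAV2-GFP in edgeR's quasi-likelihood test with Benjamini-Hochberg adjustment over all tested genes. Over all tested genes 11.2% passed that threshold, 5.95% higher and 5.30% lower with AAV206-GFP. That background moved with single libraries, from 1747 genes called to 991 without AAV2-GFP replicate 4, 1056 without AAV206-GFP replicate 4 and 1074 without AAV206-GFP replicate 2. At an unadjusted p under 0.05 there was 1 member, Slc7a11, where 28.0% of all tested genes were. In none of the 10 members did the 2 groups of libraries separate without overlap, which 9.78% of all tested genes did. The log2 fold change of AAV206-GFP over AAV2-GFP was above 0 for 6 members and below 0 for 4, with a median of 0.017 beside -0.0095 for all tested genes. The median absolute log2 fold change was 0.083 for the members and 0.16 for all tested genes. With limma-voom and sample weights, Slc7a11 alone among the members passed, and no other alternative or omission of a library called a member.

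**Figure D1:**
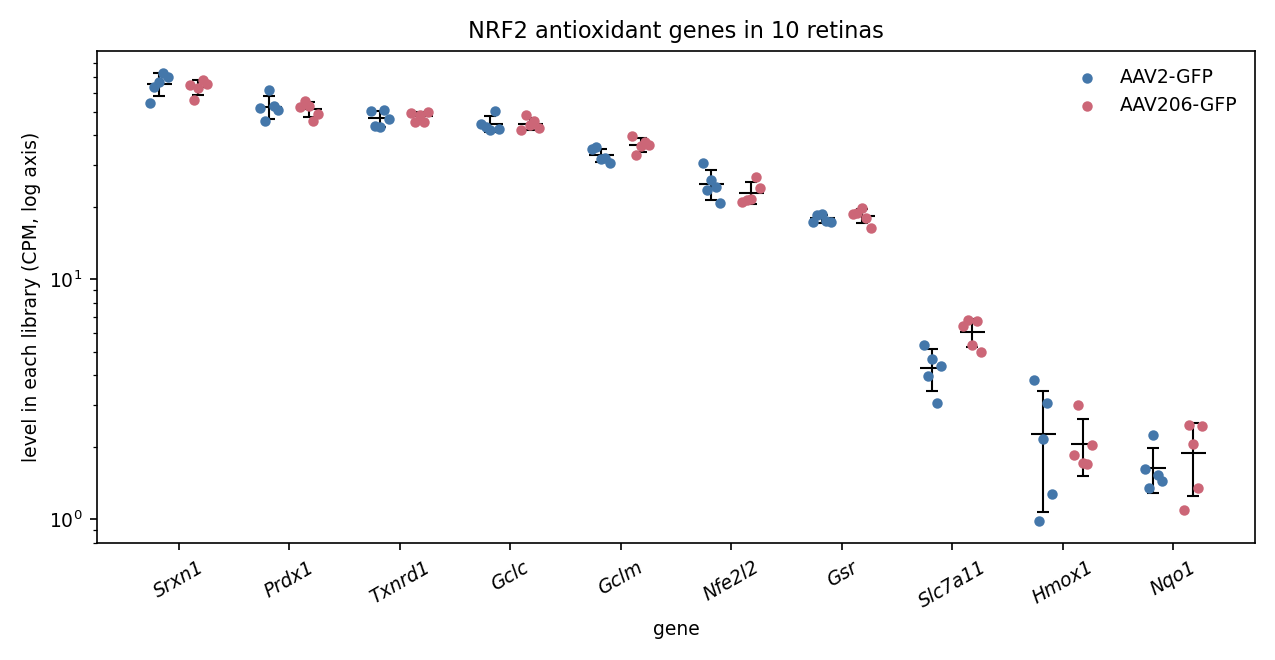
Level of each of the 10 NRF2 antioxidant genes in every library, in CPM on a log axis, with 1 point per library and the 5 AAV2-GFP and 5 AAV206-GFP libraries in separate columns of points. The groups overlap in every gene, and Hmox1 has the widest scatter, from 0.988 to 3.80 CPM.

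The intervals bound how large a difference these libraries allow for each gene. The 95% interval of the fold change lay within 2-fold in either direction for all 10 members. It lay within 1.5-fold for 7 members, the exceptions being Slc7a11, Hmox1 and Nqo1. For 6 members, namely Gclc, Gclm, Txnrd1, Srxn1, Gsr and Prdx1, the bounds of all intervals lay between 0.863-fold and 1.23-fold. The members were measured with a median standard error (SE) of 0.084 on the log2 scale, beside 0.109 for all tested genes. In a bulk sample, fewer cells of a type and less RNA per cell cannot be told apart.

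**Figure D2:**
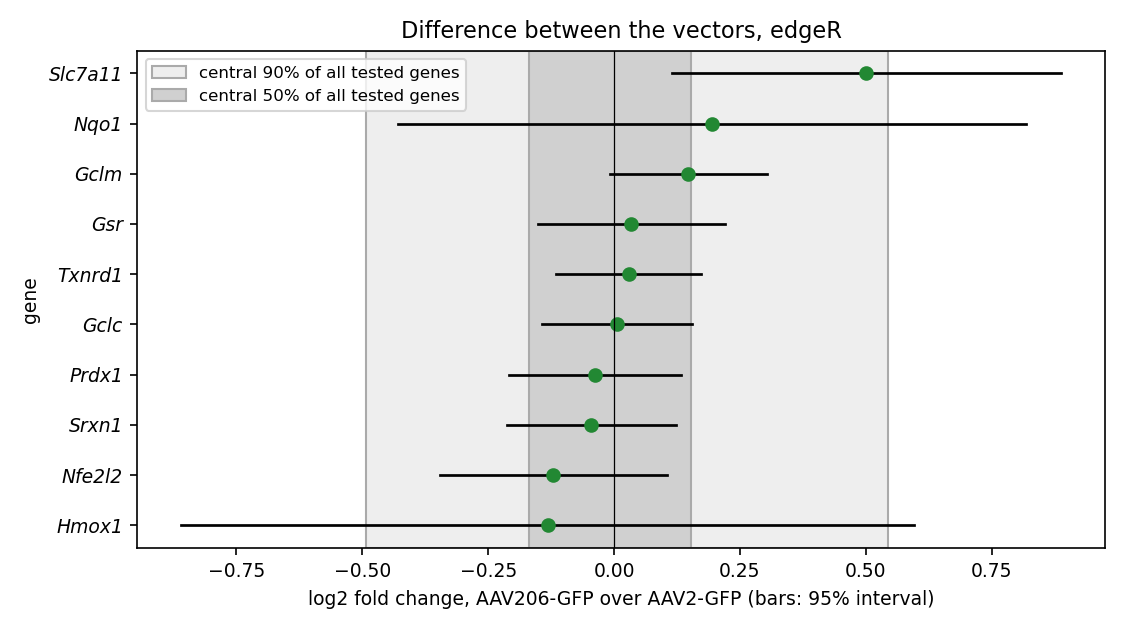
Log2 fold change of each gene, AAV206-GFP over AAV2-GFP, with its 95% interval from edgeR, over grey bands that hold the central 50% and 90% of all tested genes. Slc7a11 stands at 0.50 and the other 9 genes lie between -0.13 and 0.19.

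Nfe2l2 (ENSMUSG00000015839, chr2:75675513-75704641, minus strand, mm10), the gene of NRF2 itself, was present at a moderate level. Its level in AAV2-GFP replicates 1 to 5 was 30.5, 23.6, 25.9, 24.2 and 20.8 CPM, and in AAV206-GFP replicates 1 to 5 it was 21.1, 21.3, 21.6, 26.7 and 24.1 CPM. The highest library was AAV2-GFP replicate 1, the library with the high microglia and macrophage markers, and the lowest was also an AAV2-GFP library, so that the AAV206-GFP libraries lay inside the AAV2-GFP range. The means were 24.99 ± 3.58 and 23.0 ± 2.41 CPM (SD, n = 5), which gave a log2 fold change of -0.12 with an SE of 0.11 and a 95% interval of -0.35 to 0.10 (edgeR adjusted p = 0.485).

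Glutathione synthesis begins with the import of cystine and the joining of glutamate to cysteine, steps served by Slc7a11, Gclc and Gclm. Slc7a11 (ENSMUSG00000027737, chr3:49892526-50443614, minus strand) encodes xCT, the transport subunit of the cystine-glutamate exchanger. Its level was 5.33, 3.95, 4.64, 3.07 and 4.36 CPM in AAV2-GFP replicates 1 to 5 and 6.39, 6.75, 5.35, 6.73 and 5.00 CPM in AAV206-GFP replicates 1 to 5. Of the AAV206-GFP libraries 4 lay above every AAV2-GFP library, and replicate 5 lay just under AAV2-GFP replicate 1. The means were 4.27 ± 0.841 and 6.04 ± 0.815 CPM (SD, n = 5), which gave a log2 fold change of 0.50 with an SE of 0.18. This corresponds to a ratio of 1.42 with a 95% interval of 1.08 to 1.85. The unadjusted p in edgeR was 0.0143 and the adjusted p was 0.0858, so Slc7a11 did not pass the threshold over all genes. Of all tested genes 10.5% had a larger absolute log2 fold change. The gene rested on 38 to 76 counts per library. Over the alternatives and the omission of each library in turn, its log2 fold change stayed between 0.40 and 0.59 and its adjusted p ran from 0.045 to 0.199. The lowest of these was limma-voom with sample weights, with a log2 fold change of 0.56 and an adjusted p of 0.045. Without AAV2-GFP replicates 1 and 4, the libraries with high interferon genes, edgeR gave 0.47 with an adjusted p of 0.166.

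Gclc (ENSMUSG00000032350, chr9:77754535-77794485, plus strand) encodes the catalytic subunit of glutamate-cysteine ligase, the rate-limiting enzyme of glutathione synthesis. It measured 44.3, 43.1, 42.1, 50.3 and 42.5 CPM with AAV2-GFP, against 41.8, 48.6, 44.0, 45.8 and 43.0 CPM with AAV206-GFP, in the order of the replicates. AAV2-GFP replicate 4 was the highest library, and the AAV206-GFP range contained the other 4 AAV2-GFP libraries. On the log2 scale the change was 0.0051 with an SE of 0.07 and a 95% interval of -0.14 to 0.15 (edgeR adjusted p = 0.973). Its sign turned in several alternatives, among them the omission of AAV2-GFP replicate 2, 3 or 5 or AAV206-GFP replicate 2 or 4, with -0.027 as the lowest value.

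Gclm (ENSMUSG00000028124, chr3:122245557-122270732, plus strand) encodes the modifier subunit of the same enzyme, which raises its affinity for glutamate. It measured 34.8, 35.5, 31.9, 31.9 and 30.5 CPM with AAV2-GFP, against 39.5, 33.0, 36.1, 37.3 and 36.4 CPM with AAV206-GFP. Of the AAV206-GFP libraries 4 were above every AAV2-GFP library, and replicate 2 lay among them. This gave a log2 fold change of 0.15 with an SE of 0.07 and a 95% interval of -0.0083 to 0.30, which did not pass (edgeR, unadjusted p = 0.0619, adjusted p = 0.201). Exons of Gclm overlap those of the pseudogene Gm6061 on the same strand over 244 bases and of Gm17494 on the opposite strand over 296 bases, and its count carried decimals in 1 library, so a small part of its reads may have been shared. The subunits of the ligase thus gave -0.14 to 0.15 for Gclc and -0.0083 to 0.30 for Gclm as intervals on the log2 scale, and the difference between them was not tested.

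Regeneration of reduced glutathione and thioredoxin depends on Gsr and Txnrd1. Gsr (ENSMUSG00000031584, chr8:33652523-33698163, plus strand) encodes glutathione reductase, which returns oxidised glutathione to its reduced form with NADPH. Its level was 17.4, 18.6, 18.8, 17.6 and 17.4 CPM with AAV2-GFP, against 18.7, 18.9, 19.8, 18.1 and 16.4 CPM with AAV206-GFP. The AAV2-GFP libraries lay inside the AAV206-GFP range. The log2 fold change was 0.03 with an SE of 0.09 and a 95% interval of -0.15 to 0.22 (edgeR adjusted p = 0.830).

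Txnrd1 (ENSMUSG00000020250, chr10:82833951-82897712, plus strand) encodes the cytosolic thioredoxin reductase, a selenoprotein. It measured 50.3, 43.7, 43.3, 50.7 and 46.6 CPM with AAV2-GFP, against 49.6, 45.5, 48.6, 45.4 and 50.1 CPM with AAV206-GFP. Here the AAV206-GFP libraries lay inside the AAV2-GFP range. Its log2 fold change was 0.03 with an SE of 0.07 and a 95% interval of -0.11 to 0.17 (edgeR adjusted p = 0.813).

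Peroxide reduction is represented by Prdx1 and Srxn1. Prdx1 (ENSMUSG00000028691, chr4:116685544-116700822, plus strand) encodes peroxiredoxin 1, a thiol peroxidase of the cytosol. It measured 51.6, 45.6, 61.4, 52.9 and 50.7 CPM with AAV2-GFP, against 52.4, 55.6, 52.7, 45.8 and 49.1 CPM with AAV206-GFP. Both the highest and the lowest library belonged to AAV2-GFP. On the log2 scale the change was -0.04 with an SE of 0.08 and a 95% interval of -0.21 to 0.13 (edgeR adjusted p = 0.797), and its sign turned when AAV2-GFP replicate 3 was left out, at 0.025.

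Srxn1 (ENSMUSG00000032802, chr2:152105516-152111376, plus strand) encodes sulfiredoxin, which repairs over-oxidised peroxiredoxins. Its level was 54.2, 63.2, 66.7, 72.4 and 69.5 CPM with AAV2-GFP, against 64.6, 56.2, 62.6, 67.8 and 64.9 CPM with AAV206-GFP. Again the AAV2-GFP libraries held both extremes, with replicate 1 lowest and replicate 4 highest. The log2 fold change was -0.04 with an SE of 0.08 and a 95% interval of -0.21 to 0.12 (edgeR adjusted p = 0.748).

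Hmox1 and Nqo1, the targets most often used as readouts of NRF2 in stressed cells, were both at a low level in these retinas. Hmox1 (ENSMUSG00000005413, chr8:75093621-75100589, plus strand) encodes heme oxygenase 1, the inducible enzyme that opens the heme ring. It measured 3.80, 0.988, 2.17, 3.07 and 1.28 CPM with AAV2-GFP, against 1.85, 3.01, 1.72, 1.70 and 2.03 CPM with AAV206-GFP, from 11 to 42 counts. AAV2-GFP replicates 1 and 4 were the highest of all 10 libraries, and these are also the libraries with the highest interferon sums, 473 and 640 CPM. Replicate 1 further held the microglia and macrophage sum of 216 CPM, and macrophages are known to express Hmox1. AAV206-GFP replicate 2 came next for Hmox1 at 3.01 CPM, close to AAV2-GFP replicate 4. Its interferon sum was 111 CPM and its microglia and macrophage sum 21.6 CPM. The part of macrophages or of the interferon response in Hmox1 was not tested. The coefficient of variation reached 52.3% among the AAV2-GFP libraries, against 26.4% among the AAV206-GFP libraries. The difference amounted to a log2 fold change of -0.13 with an SE of 0.34 and a 95% interval of -0.86 to 0.60 (edgeR adjusted p = 0.836). It was 0.13 without AAV2-GFP replicate 1 and 0.46 without replicates 1 and 4 together (edgeR adjusted p = 0.838 and 0.480), so no direction can be read for Hmox1.

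Nqo1 (ENSMUSG00000003849, chr8:107388225-107403206, minus strand) encodes a quinone reductase. It measured 1.63, 1.35, 2.24, 1.53 and 1.45 CPM with AAV2-GFP, against 1.09, 2.46, 2.07, 1.35 and 2.46 CPM with AAV206-GFP, from 13 to 29 counts. The AAV206-GFP libraries held both the lowest and the highest values. Its log2 fold change was 0.19 with an SE of 0.29 and a 95% interval of -0.43 to 0.82 (edgeR adjusted p = 0.705). These values were compatible with no difference and with one of up to 1.76-fold upward, the upper bound of the interval.

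Levels of different genes were compared per length, as CPM per kilobase of merged exons, over all 10 libraries. In this unit Srxn1 was highest at 22.8 ± 1.99, followed by Prdx1 at 17.0 ± 1.52 and Gclc at 11.8 ± 0.756 (SD, n = 10). Txnrd1 at 6.68 ± 0.398, Gsr at 6.60 ± 0.355, Nfe2l2 at 6.32 ± 0.807 and Gclm at 5.51 ± 0.446 formed a middle group in which each range overlapped the next. Hmox1 at 1.23 ± 0.499 and Nqo1 at 1.14 ± 0.323 overlapped each other, and Slc7a11 was lowest at 0.370 ± 0.0875. The ranges of Srxn1 and Prdx1 also overlapped. The ranges did not overlap between Prdx1 and Gclc, between Gclc and Txnrd1, between Gclm and Hmox1 or between Nqo1 and Slc7a11. Dividing by the longest consensus coding transcript in place of merged exons, a choice made after the data were seen, put Txnrd1 (13.4) above Gclc (13.02) and Nfe2l2 (9.69) above Gsr (6.80) and left the other places as they were.

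No library carried the whole gene group up or down. The median deviation of a library from the gene means, over the 10 genes, lay between -0.11 and 0.08 on the log2 scale. AAV2-GFP replicate 1 was the highest of the 10 libraries for Nfe2l2 and Hmox1 and the lowest for Srxn1. AAV2-GFP replicate 4 was the highest for Gclc, Txnrd1 and Srxn1 and the lowest for Slc7a11. Correlations between the genes from mouse to mouse were also low in these libraries. Among the 7 members with at least 40 counts in every library there are 21 pairs, and Pearson's r of their log2 levels after subtraction of the group means had a median of -0.025 over the 10 libraries. The correlations ran from -0.49 for Txnrd1 with Gsr to 0.40 for Nfe2l2 with Gclm, 7 were above 0 and none exceeded 0.5. They are given as descriptions, since all pairs share the same 10 libraries and their scaling. Counting error also lowers such correlations. Gsr, for example, rested on 192 to 243 counts and had coefficients of variation of 3.82% and 6.80% in the AAV2-GFP and AAV206-GFP groups. The share of counting error was not estimated, so these correlations cannot show whether the genes vary together between mice.

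**Figure D3:**
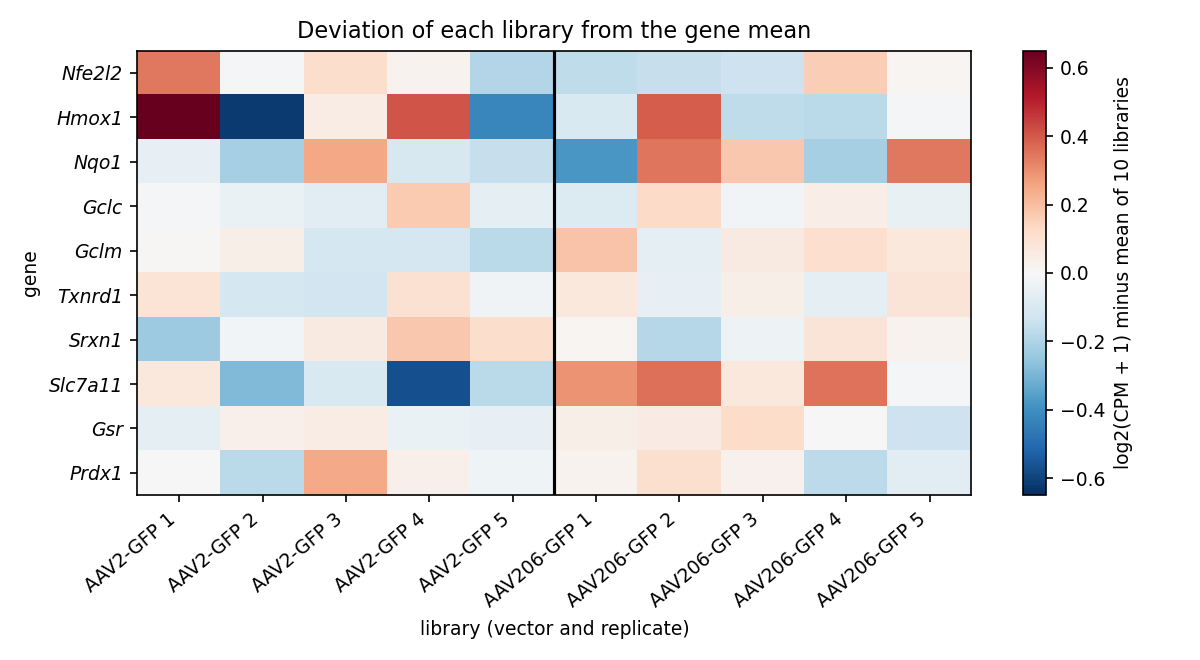
Deviation of each library (columns, by vector and replicate) from the mean of each gene (rows), in log2 units of CPM + 1, as colour. Hmox1 spans -0.62 to 0.65 over the AAV2-GFP libraries, and no column has the same colour throughout.

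By the same measure over 12000 genes, the 3 genes whose pattern over the 10 libraries was most like that of Nfe2l2 were Ly75 (r = 0.938), Galns (r = 0.922) and Sgk3 (r = 0.920). Without AAV2-GFP replicate 1 the same 3 genes, not chosen anew, gave 0.916, 0.882 and 0.864. As the highest of 12000 correlations over 10 libraries, values of this size can arise from the selection alone. The likeness is a description and was not tested. Group means of the 3 genes were low, between 4.08 and 6.15 CPM.

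The other genes of the pathway were read from 8 lists with 91 genes, of which 84 were tested. Of these 84, 3 were higher and 7 lower with AAV206-GFP, or 11.9%, close to the 11.2% of all tested genes, and their median log2 fold change was -0.06. Among 14 tested regulators and partners of NRF2, 2 small MAF genes were lower. Maff, whose protein pairs with NRF2 on DNA, measured 3.16, 2.34, 4.10, 2.42 and 2.05 CPM with AAV2-GFP, against 1.35, 1.09, 1.29, 1.17 and 1.70 CPM with AAV206-GFP. All AAV206-GFP libraries lay below all AAV2-GFP libraries, with a log2 fold change of -1.09 and an SE of 0.27 (edgeR adjusted p = 0.0174). The call was lost without AAV2-GFP replicate 3 (-0.91, edgeR adjusted p = 0.0557) and without AAV2-GFP replicates 1 and 4 together (-1.10, edgeR adjusted p = 0.0590). Mafg, a further partner, fell from 149 ± 11.2 to 126 ± 11.4 CPM (SD, n = 5), with groups that overlapped and a log2 fold change of -0.24 with an SE of 0.07 (edgeR adjusted p = 0.0436). Its call was lost on leaving out any of 7 libraries, namely AAV2-GFP replicates 2, 4 and 5 and AAV206-GFP replicates 2 to 5, with an adjusted p of up to 0.115, and also without AAV2-GFP replicates 1 and 4 together (edgeR adjusted p = 0.123). Its exons overlap those of Sirt7 on the same strand over 124 bases. Keap1, the sensor that holds NRF2, averaged 62.9 CPM in the AAV2-GFP group against 60.8 CPM in the other (log2 fold change -0.05, edgeR adjusted p = 0.724). Its exons overlap the antisense gene Gm16754, whose reads cannot be told apart without strand. Bach1, a repressor that competes with NRF2 at its elements and is known for keeping Hmox1 low, averaged 28.8 and 28.2 CPM (log2 fold change -0.03, edgeR adjusted p = 0.895).

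Among 11 other tested genes of glutathione synthesis and use, 1 was higher and 1 lower. Gpx3, the secreted glutathione peroxidase of plasma, measured 8.05, 3.23, 5.72, 3.95 and 9.31 CPM with AAV2-GFP, against 44.2, 18.8, 24.1, 10.4 and 18.3 CPM with AAV206-GFP. Every AAV206-GFP library was above every AAV2-GFP library, with a log2 fold change of 1.94 and an SE of 0.34 (edgeR adjusted p = 0.00186). Gpx3 is widely expressed outside the neural retina. Beside it, erythrocyte markers summed to 67.8 to 85.8 CPM in the AAV2-GFP libraries, against 101 to 320 CPM in the others, and RPE markers to 229 to 350 and 232 to 269 CPM. The part of other tissues in the level of Gpx3 was not tested. Gpx4, which reduces lipid peroxides in membranes, fell from 306 ± 49.999 to 243 ± 17.2 CPM (SD, n = 5), with overlap, a log2 fold change of -0.33 and an SE of 0.09 (edgeR adjusted p = 0.0315). Its counts carried decimals in 8 libraries, so some reads may have been shared with another gene, and the call was lost without AAV2-GFP replicate 4 or AAV206-GFP replicate 1, 2, 3 or 4 (adjusted p up to 0.0822). Slc3a2, the heavy chain that carries xCT to the membrane, named here after its values were seen, averaged 97.9 and 103 CPM (log2 fold change 0.08, edgeR adjusted p = 0.515).

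None of 15 tested detoxification and conjugation enzymes passed, with a median log2 fold change of 0.014, and none of 4 superoxide dismutase and catalase genes did. Of the 15 enzymes 8 were above 0 and 7 below. The largest change among them, named here after its value was seen, was that of Gsta3. Its log2 fold change was 1.14 with a 95% interval of 0.37 to 1.91 (edgeR adjusted p = 0.0540). Of 6 enzymes that supply NADPH, Taldo1, the transaldolase of the pentose phosphate pathway, fell from 86.0 ± 11.2 to 61.5 ± 8.75 CPM (SD, n = 5) without overlap, for a log2 fold change of -0.49 with an SE of 0.10 (edgeR adjusted p = 0.00649). Of 9 genes of heme and iron handling, Tfrc, the transferrin receptor that imports iron, rose from 158 ± 10.4 to 208 ± 13.99 CPM (SD, n = 5) without overlap, for a log2 fold change of 0.40 with an SE of 0.07 (edgeR adjusted p = 0.00115). Tfrc is also abundant in immature red cells. Sums of erythrocyte markers, which were not chosen to mark immature cells, are given above beside Gpx3. The part of red cells in the level of Tfrc was not tested. Hmox2, the constitutive heme oxygenase, averaged 31.9 and 27.6 CPM, a log2 fold change of -0.21 that did not pass (edgeR, unadjusted p = 0.0326, adjusted p = 0.139). It carried decimals in all 10 libraries and overlaps Cdip1 on the opposite strand. Of 13 other thioredoxin and peroxiredoxin genes, Txnrd3, the thioredoxin-glutathione reductase known from testis, rose from 3.35 ± 1.37 to 5.91 ± 0.430 CPM (SD, n = 5) without overlap, for a log2 fold change of 0.82 with an SE of 0.24 (edgeR adjusted p = 0.0383). That call was lost on leaving out any library except AAV2-GFP replicate 2 or 4, with an adjusted p of up to 0.0830.

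ATF4, the factor of the amino acid and unfolded protein responses, is also known to drive Slc7a11, so Atf4 and its targets were listed. Of 12 such genes tested, 3 were lower and none higher, beside 5.30% lower and 5.95% higher over all tested genes, with a median log2 fold change of -0.23. Ddit3, the stress factor CHOP, fell from 39.3 ± 5.39 to 29.4 ± 2.55 CPM (SD, n = 5) without overlap, for a log2 fold change of -0.42 with an SE of 0.10 (edgeR adjusted p = 0.0112). Its exons overlap those of Mars on the opposite strand over 68 bases. On the same strand they overlap a second annotated gene entry named Ddit3 over 105 bases, and that entry had no counts. Atf3 fell from 11.4 ± 0.884 to 8.27 ± 1.20 CPM (SD, n = 5) without overlap, for a log2 fold change of -0.46 with an SE of 0.13 (edgeR adjusted p = 0.0329). Atf4 fell from 241 ± 29.1 to 202 ± 14.2 CPM (SD, n = 5) with overlap, a log2 fold change of -0.26 with an SE of 0.08 (edgeR adjusted p = 0.0486). The call of Atf3 was lost without AAV2-GFP replicate 1, 3 or 5 or AAV206-GFP replicate 1, 2 or 3 (adjusted p up to 0.0850), and that of Atf4 without AAV2-GFP replicate 3, 4 or 5 or AAV206-GFP replicate 1, 2, 3 or 4 (adjusted p up to 0.120). Without AAV2-GFP replicates 1 and 4 together, edgeR gave an adjusted p of 0.0710 for Atf3 and 0.0912 for Atf4. Of the 12 genes 4 had a log2 fold change above 0 and 8 below. Those above 0, named here after their values were seen, were Mthfd2 at 0.52, Psat1 at 0.27, Asns at 0.13 and Trib3 at 0.027. None of them passed (edgeR adjusted p = 0.0990, 0.0618, 0.324 and 0.936). Named in the same way, those below 0 and not called were Chac1 at -0.80, Phgdh at -0.48, Cebpb at -0.25, Sesn2 at -0.22 and Shmt2 at -0.078. Their edgeR adjusted p was 0.0873, 0.131, 0.452, 0.140 and 0.544. An unadjusted edgeR p under 0.05 was reached by 8 of the 12 genes, in both directions, beside 28.0% of all tested genes.

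**Figure D4:**
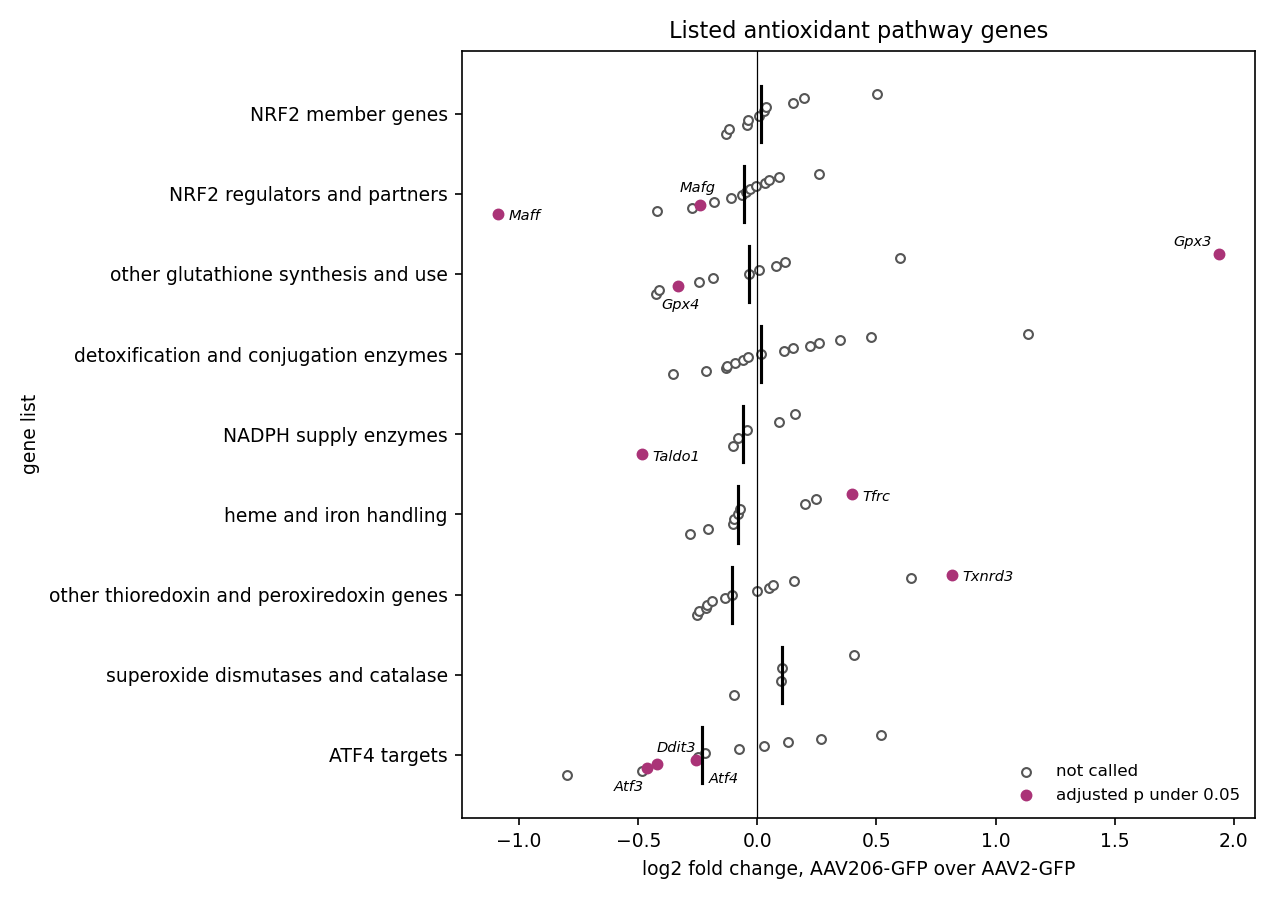
Log2 fold change of every tested gene in the NRF2 antioxidant group and in 8 lists of related genes, AAV206-GFP over AAV2-GFP, with 1 point per gene, filled where edgeR's adjusted p is under 0.05, and a bar at each list's median. The NRF2 row has no filled point, and Maff at -1.09 and Gpx3 at 1.94 are the farthest filled points.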

How the data were processed

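Per the labels' protocols, total retinal RNA was made into NEBNext Ultra libraries and sequenced as pairs of 150 bases. The deposited values were expected counts per gene, not scaled between libraries, per the file headers and values. The submitters' processing notes list STAR 2.7.10b, RSEM 1.3.1 and mm10, with no role given. Decimals occurred in 5.95% of all values and in 15.7% of values above 0, and counts were rounded before modelling. Symbols, coordinates and exon lengths came from GENCODE M21. Nothing recorded says whether counting used strand.

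The comparison used edgeR 4.0.16 in R 4.3.3 with TMM scaling, filterByExpr at a minimum count of 10, a quasi-likelihood F test on all 10 libraries without covariates and Benjamini-Hochberg adjustment at 0.05. Procedures were tested on simulated data. Alternatives were other scalings and filters, DESeq2 1.42.0, limma 3.58.1, blocking on the replicate number, robust dispersions in edgeR and the omission of libraries.

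The members, lists and tests were chosen with earlier results of these data known. All 10 members are named, with Keap1, Bach1, Mafg, Hmox2 and up to 5 called genes per list by p, and the 3 genes most like Nfe2l2 among those with a mean of at least 5 CPM.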

Additional observations from a re-analysis of the deposited data

Results flagged for a closer look

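Within groups of 5 libraries, 48 group results were examined for a library set apart by more than 0.71 of the group's range, and 2 were found where chance alone gives about 1 in 20, or 2.4. Hmox1 in AAV206-GFP replicate 2 was at 3.01 CPM, with the other AAV206-GFP libraries between 1.70 and 2.03 CPM. Gclc in AAV2-GFP replicate 4 was at 50.3 CPM, with the other AAV2-GFP libraries between 42.1 and 44.3 CPM. Both genes had an edgeR adjusted p above the threshold with and without these libraries.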

How the results depend on the processing

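No member passed edgeR's threshold under any scaling or filter, with robust dispersions, in DESeq2 or limma-voom, or without any library. With limma-voom and sample weights 1 member passed, Slc7a11, at a log2 fold change of 0.56 (adjusted p = 0.045). The number of genes called, 1747, was 1085 with the replicate block, 985 without AAV2-GFP replicates 1 and 4, and 991 to 1912 when each library was left out in turn. It fell to 991 without AAV2-GFP replicate 4, to 1074 without AAV206-GFP replicate 2 and to 1056 without AAV206-GFP replicate 4. Same-numbered libraries did not deviate together (r from -0.052 to 0.040 over 5 pairs, and 0 of 5 AAV2-GFP libraries correlated best with its own number), so the numbers were not taken as pairs. The calls lost under the block were those of Mafg, Gpx4, Atf3 and Atf4, while no member was called with or without it.

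Signs turned only in values near 0 relative to their error. Gclc was -0.0016 with library sizes alone and -0.027 to 0.052 with each library left out. Hmox1 was 0.17 with limma-voom and sample weights, 0.46 without AAV2-GFP replicates 1 and 4 and -0.32 to 0.13 with each library left out. Prdx1 was 0.014 with limma-voom and sample weights and -0.084 to 0.025 with each library left out. Bach1 was 0.0017 without AAV2-GFP replicates 1 and 4 and -0.088 to 0.037 with each library left out, and Keap1 was -0.10 to 0.012. The calls of Gpx3, Taldo1, Tfrc and Ddit3 held in all 11 alternatives and all 10 omissions of a library. Atf4 also lost its call with upper-quartile scaling and limma-voom, and Atf3 without a filter on low counts. Without AAV2-GFP replicates 1 and 4, the calls of Maff, Mafg, Atf3 and Atf4 were lost. Counts were low for Hmox1 (11 to 42), Nqo1 (13 to 29) and Maff (12 to 53).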
